A study of Schizosaccharomyces pombe with 10 samples.

Results

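Coding genes of 6 kb and longer are among the longest annotated coding genes of the fission yeast Schizosaccharomyces pombe, and their transcript levels are described here in strains that lack cph1, cph2 or set2. A gene was taken where its annotated exons, summed as in the counting table, covered at least 6000 bases and its identifier was that of a coding gene. Genes less than 200000 bases from the ends of chromosomes I and II were left out, as were vps1301 (SPBC21C3.01c) and SPAC23G3.02c, which the rule names. Of 67 coding identifiers of this length, 63 met the rule, out of 7268 annotated genes in all, and the rule itself uses length, place and identifier but no measured value. Counts in 61 of the 63 were high enough to be tested.

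Set2 methylates lysine 36 of histone H3 on nucleosomes that elongating RNA polymerase II has passed. In budding yeast this mark acts with the histone deacetylase Rpd3S to keep chromatin in gene bodies deacetylated and silent for initiation, and long genes that are seldom transcribed have been described there as the most dependent on it. In fission yeast the enzyme that corresponds to Rpd3S is complex II of the deacetylase Clr6, and the PHD finger proteins Cph1 and Cph2 belong to it.

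Polyadenylated RNA of 10 libraries was sequenced, 2 from each of 5 strains grown in rich medium to exponential phase. The cph1Δ and cph2Δ strains carry KANMX in place of the gene named and share with their parent, wt, mating type h- and the alleles leu1-32, ade6-m216, ura4-d18 and his3 d1. The set2Δ strain is h- and carries a set2 null allele with KANMX, and its parent, wt2, is labelled h- with no other allele. Each group is 1 named strain, and the labels do not say whether its 2 libraries are from different cultures, so p-values measure only the spread between these libraries. In RNA of whole cultures, fewer cells with a transcript and less of it per cell cannot be told apart.

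Library totals over all genes ranged between 9711537 and 13051467 counts. Each deleted gene was low in its own strain, at 1.12 to 3.29 RPKM in the libraries of the 3 deletions, against 34.5 to 63.5 RPKM in those of their parents. Scaling factors by the trimmed mean of M-values (TMM) set cph1Δ replicate 2 (1.25) and wt replicate 2 (0.845) apart from the other 8 libraries. Counts of calls over the members, their level groups and the longest length classes are given with and without them. Levels below are RPKM, counts scaled to exon length and to the TMM-adjusted library total, and differences are log2 fold changes of a deletion over its parent with their standard errors (n = 2 libraries per group). Genes were called where the edgeR quasi-likelihood test had a Benjamini-Hochberg adjusted p under 0.05 over all 5067 genes tested.

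The members spanned 6025 to 14362 bases of exon, with a median of 7222, and lay on chromosomes I, II and III. The longest were mdn1 (14362 bases), the dynein gene dhc1 (12946), SPBPJ4664.02 (12261), tra2 (11390) and tra1 (11183). Of the 63, 44 had a single exon. Their coding lengths had a median of 6159 bases, and 32 reached 6000 on coding sequence alone. In 9 members less than 50% of the exon length was coding, namely mbx2, msw1, prm1, str2, wdr70, gti1, swi1, prp17 and SPCC320.06, so that most of what was counted there lay outside the coding part. Exon positions were shared with another annotated gene in 44 members and to at least 20% in 20. Counting was run with no option for strand or overlapping genes. Reads of either strand thus counted in every member, and values of those 20 are uncertain for their overlaps as well. In mbx2, with 97.6% shared, no library had more than 1 count. Whether sharing lowered the levels of such members was not tested. Genes just inside the length limit were rqt2 (6025 bases), dbl8 (6061), stt4 (6069) and bgs2 (6069). Just outside it were ppk1 (5993 bases), mus7 (5956) and cdc12 (5914), and of these mus7 stood at 1.20 in cph1Δ, 0.98 in cph2Δ and 0.93 in set2Δ. In the same order cdc12 had 0.78, 0.82 and 0.42, and ppk1 -0.42, -0.45 and -0.057.

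Long genes were mostly higher in both cph deletions. In cph1Δ 18 of the 61 tested members rose and 0 fell (29.5% and 0; 5.31% of all genes tested rose and 0.316% fell), led by vps1302, mok11, tel1, cdc20, tra1 and mok12. In cph2Δ 18 rose and 0 fell as well (29.5%; 5.21% of all genes rose and 0.908% fell), with the same 2 wt libraries on the other side of the comparison. An unadjusted p under 0.05 was reached by 37 of 61 in cph1Δ and 35 in cph2Δ (60.7% and 57.4%; 23.3% and 23.5% of all genes). DESeq2 placed 1 member, ura1, lower in cph1Δ (-0.68 in the edgeR fit, edgeR adjusted p = 0.131; DESeq2 adjusted p = 0.0162). The median log2 fold change of the members was 0.51 in cph1Δ and 0.53 in cph2Δ, against 0.02 and 0.0089 over all genes tested. In the 19 members that share no exon position with another gene it was 0.29 and 0.34, and 3 and 5 of the 19 rose. Both deletion libraries lay above both wt libraries in 39 members for cph1Δ (63.9%; 28.8% of all genes) and in 40 for cph2Δ (65.6%; 27.9%). They lay below both in 10 (16.4%; 23.1% of all genes) and 11 (18.03%; 22.0%).

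In set2Δ 9 of the 61 members rose and 0 fell (14.8%; 4.32% of all genes tested rose and 0.572% fell), and 25 had an unadjusted p under 0.05 (41.0%; 18.2% of all genes). Those that rose were rqt2, SPAC4F10.16c, bfr1, cta5, cdc20, SPAC57A7.05, mok11, mok12 and tra1. The median was 0.21, against 0.034 over all genes, and both set2Δ libraries lay above both wt2 libraries in 32 members (52.5%; 31.3% of all genes) and below both in 9 (14.8%; 26.8%). Of the 18 members called in cph1Δ, 7 were also called in set2Δ, which is 38.9% of the cph1Δ list and 77.8% of the set2Δ list. The 18 called in cph2Δ held 6 of them, or 33.3% and 66.7%. The same shares over all genes tested are not given here, so this overlap cannot be read as particular to long genes. Across the 61 members the fold changes in cph1Δ and set2Δ, which share no library, had a rank correlation of 0.59 (0.44 over the 5067 genes), and those in cph2Δ and set2Δ one of 0.62 (0.31), as a description of genes measured in the same libraries. Without wt replicate 2, 2 of the cph1Δ calls and 1 of the cph2Δ calls were also called in set2Δ, and the rank correlations over the members were 0.496 and 0.52. Without cph1Δ replicate 2, 2 calls were shared and the correlation was 0.53, and without cph2Δ replicate 2, 3 calls were shared and it was 0.602. Without wt2 replicate 1 or set2Δ replicate 1, which left set2Δ with 0 calls, 0 were shared.

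Between the parents wt2 and wt, 0 members passed the edgeR test (0.197% of all genes passed) and 6 had an unadjusted p under 0.05 (7.26% of all genes did). By DESeq2 3 passed, mot1, gsf2 and bfr1, all lower in wt2, and the share of all genes that passed by DESeq2 is not given here. The median of wt2 over wt was 0.031, and each parent had 10 members with both libraries above both of the other (16.4%; 19.7% and 18.1% of all genes). Between cph1Δ and cph2Δ 0 members passed by edgeR (0.0592% of all genes) and 0 by DESeq2, while 1 had an unadjusted p under 0.05 (6.93% of all genes). The counts of calls in the deletions depended on single libraries, and so did the shares called among genes of 4 to 6 kb given below. Without wt replicate 2 the count was 4 in cph1Δ and 4 in cph2Δ, without cph1Δ replicate 2 it was 6 in cph1Δ, and without wt replicate 1 and cph2Δ replicate 2 it was 10 and 7 in cph2Δ. In set2Δ it was 0 without wt2 replicate 1 or without set2Δ replicate 1, and 1 without wt2 replicate 2. Over these omissions the medians lay between 0.52 and 0.58 in cph1Δ and between 0.42 and 0.54 in cph2Δ. In set2Δ the median was 0.10 without set2Δ replicate 1 and 0.40 without set2Δ replicate 2.

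**Figure D1:**
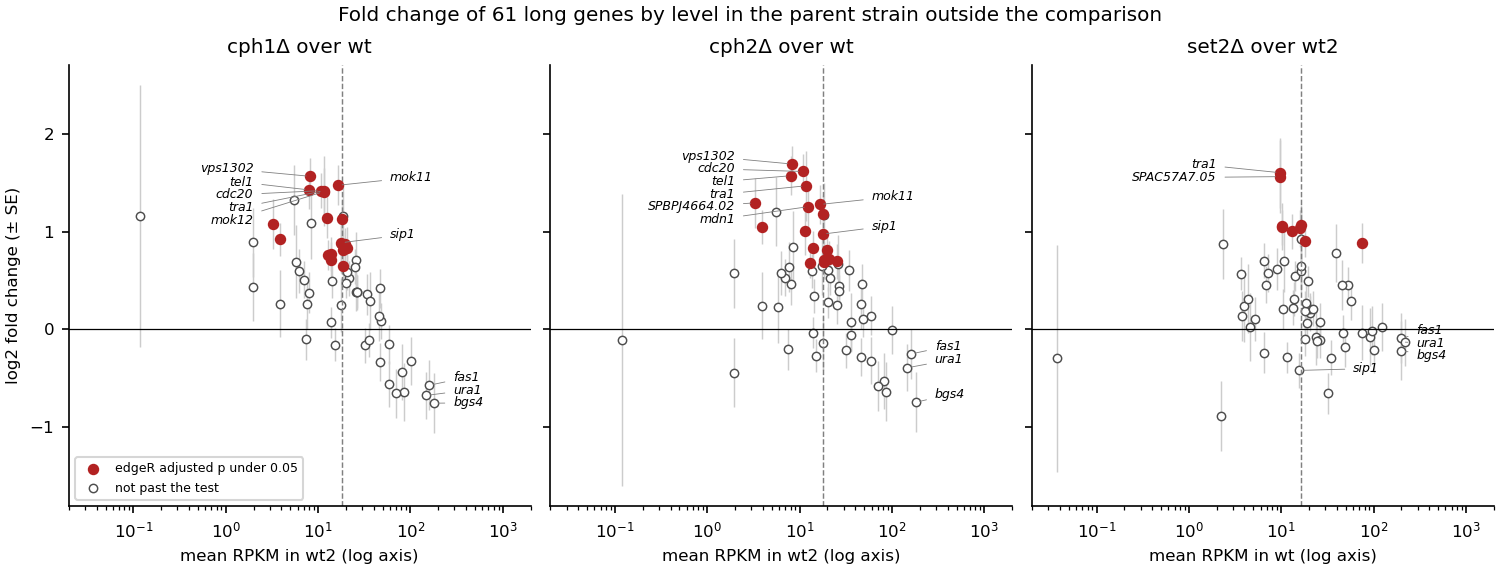
Log2 fold change (± SE) of the 61 tested long genes against their mean RPKM (log axis) in the parent strain outside the comparison, wt2 for cph1Δ and cph2Δ and wt for set2Δ. Filled points passed the edgeR test, and all of them lie above 0; the dashed line is the members' median level, 18.01 RPKM in wt2 and 16.6 RPKM in wt.

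The rise was uneven over the range of levels. Members were split at their median level in the parent that the comparison did not use, which was 18.01 RPKM in wt2 for the cph deletions and 16.6 RPKM in wt for set2Δ. Of the 30 members of lower level, 13 rose in cph1Δ, 12 in cph2Δ and 7 in set2Δ. Of the 31 of higher level, 5, 6 and 2 did. Without wt replicate 2 the lower-level count was 4 in each cph deletion, and it was 6 without cph1Δ replicate 2, 8 without cph1Δ replicate 1 and 6 without cph2Δ replicate 2. In set2Δ it was 0 without wt2 replicate 1 or set2Δ replicate 1, and 1 without wt2 replicate 2. The medians of the lower group were 0.82 in cph1Δ, 0.64 in cph2Δ and 0.56 in set2Δ, and those of the higher group 0.36, 0.26 and 0.025. Coding genes of each class from 1 to 6 kb were also called higher more often in the lower level range. In cph1Δ it was 33.9% against 7.59% from 4 to 6 kb and 8.44% against 1.46% from 1 to 2 kb. In cph2Δ the same shares were 31.5% and 5.06%, and 7.81% and 2.74%, and in set2Δ 12.3% and 3.61%, and 2.31% and 1.55%. Lower-level members shared more exon positions with other genes (median 19.4%, against 0.720% in the higher group of the wt2 split), so that more of their values are uncertain. Of the 18 tested members with at least 20% shared, 15 were in the lower group of that split, against 5 of the 19 with none. The part of sharing in the levels, and so in the split, was not tested.

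Levels in single libraries are given for the same groups of members. The 30 members of lower level in wt2 had a median of 16.9 and 18.8 RPKM in the cph1Δ libraries and 18.8 and 15.1 RPKM in those of cph2Δ, against 11.3 and 7.59 RPKM in wt. The 31 of higher level had 39.7 and 37.6 RPKM in cph1Δ and 46.5 and 37.9 RPKM in cph2Δ, against 31.1 and 37.2 RPKM in wt. For set2Δ the 30 members of lower level in wt had a median of 14.1 and 12.7 RPKM, against 10.3 and 8.84 RPKM in wt2, and the 31 of higher level 37.5 and 36.02 RPKM, against 32.3 and 35.5 RPKM in wt2. In both groups of members the medians of the 2 libraries of each deletion lay above those of its parent. All members together held 1.64% and 1.91% of the counts in cph1Δ and 1.69% and 1.47% in cph2Δ, against 1.41% and 1.38% in wt, and 1.68% and 1.44% in set2Δ, against 1.37% and 1.31% in wt2.

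In 4 parts of 16, 15, 15 and 15 members by rising level, the numbers called in cph1Δ were 4, 10, 4 and 0, in cph2Δ 4, 9, 5 and 0, and in set2Δ 2, 5, 1 and 1. The second part, between 10.8 and 18.01 RPKM in wt2, thus held 10 of the 18 calls in cph1Δ and 9 of the 18 in cph2Δ. Without wt replicate 2 the 4 parts had 2, 2, 0 and 0 calls in each cph deletion. Without cph1Δ replicate 2 they had 2, 4, 0 and 0 in cph1Δ, and without cph2Δ replicate 2 they had 3, 4, 0 and 0 in cph2Δ. In the 15 members at 35.6 RPKM and more in wt2, medians were -0.34 in cph1Δ and -0.25 in cph2Δ, and 11 and 10 of the 15 lay below 0, of which 0 passed the test. For set2Δ the 15 members of highest level in wt had a median of -0.033, with 9 below 0. The rank correlation of fold change with level over the 61 members was -0.65 in cph1Δ, -0.49 in cph2Δ and -0.30 in set2Δ. With 1 library left out at a time it lay between -0.69 and -0.59 in cph1Δ, between -0.61 and -0.396 in cph2Δ and between -0.42 and -0.17 in set2Δ. Over 2736 coding genes of 1 to 3 kb it was -0.61, -0.34 and -0.25. With exon length, the members' fold changes had rank correlations of 0.21, 0.13 and -0.13. The 17 members of 8000 bases and longer had medians of 1.08 in cph1Δ, 0.98 in cph2Δ and 0.22 in set2Δ, but 13 of them were also of lower level.

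Shorter coding genes were set beside the members by the same rule on place and identifier. The share called higher in cph1Δ was 1.43% under 1 kb, 2.53% from 1 to 2 kb, 5.51% from 2 to 3 kb, 13.2% from 3 to 4 kb, 18.6% from 4 to 6 kb and 29.5% in the members. In cph2Δ the same classes had 0.792%, 3.23%, 5.80%, 12.2%, 16.3% and 29.5%, and in set2Δ 0.634%, 1.53%, 2.80%, 5.24%, 7.12% and 14.8%. Without wt replicate 2 the share in the members was 6.56% in each cph deletion, against 3.39% and 6.10% from 4 to 6 kb. Without cph1Δ replicate 2 it was 9.84% in cph1Δ, against 8.14% from 4 to 6 kb. Without cph2Δ replicate 2 it was 11.5% in cph2Δ, against 9.49%. In set2Δ the members had 0 without wt2 replicate 1 or set2Δ replicate 1, against 0.339% and 2.37% from 4 to 6 kb, and 1.64% without wt2 replicate 2, against 0.339%. Medians over the same classes were -0.16, -0.039, 0.020, 0.18, 0.27 and 0.51 in cph1Δ, -0.056, 0.022, 0.019, 0.14, 0.21 and 0.53 in cph2Δ, and -0.066, -0.032, 0.016, 0.083, 0.15 and 0.21 in set2Δ. They were higher in each longer class in cph1Δ and set2Δ, while in cph2Δ genes of 2 to 3 kb lay slightly below those of 1 to 2 kb. A longer gene has more counts at the same level per length, which gives the test more precision. Members had a median of 1887.5 counts per library, against 1319.6 in genes of 4 to 6 kb and 578.1 under 1 kb, and the part of this in the shares called was not tested.

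Within the level range of the 30 lower-level members, genes of 4 to 6 kb were close to the members in median. In cph1Δ the members had a median of 0.82 with 43.3% called, against 0.80 and 33.9% for 127 genes of 4 to 6 kb. In cph2Δ the median was 0.64 with 12 of 30 called, against 0.62 and 31.5%. For set2Δ they were 0.56 and 23.3%, against 0.47 and 12.3% for 122 genes. In the range of the 31 higher-level members, the members had medians of 0.36, 0.26 and 0.025 in cph1Δ, cph2Δ and set2Δ, against 0.054, 0.067 and 0.044 in genes of 4 to 6 kb. In the wt2 level range of the lower-level members, the median count per library was 1290.75 in the members, against 559.0 in genes of 4 to 6 kb. The part of this in the shares called was not tested, and no difference between length classes was tested.

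**Figure D2:**
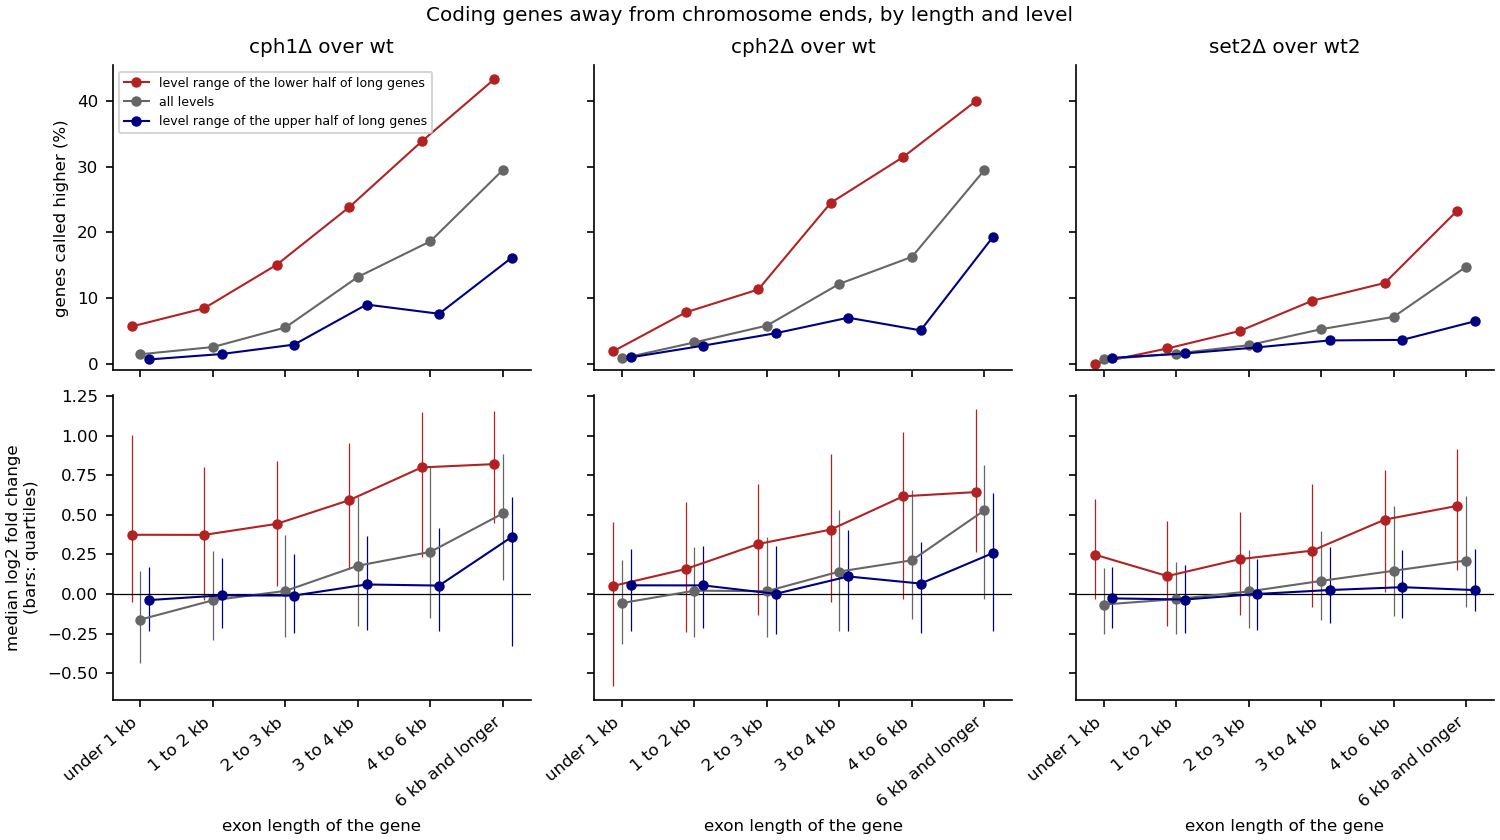
Share of tested coding genes called higher (top, %) and median log2 fold change with quartiles (bottom) by exon length, for all levels and for the level ranges of the 30 lower-level and 31 higher-level members. The share reached 29.5% in cph1Δ, 29.5% in cph2Δ and 14.8% in set2Δ for genes of 6 kb and longer at all levels.

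In each deletion library the longest class had the highest median. The median log2 ratio of the members to the mean of the 4 parent libraries was 0.49 and 0.57 in cph1Δ, 0.46 and 0.53 in cph2Δ and 0.38 and 0.15 in set2Δ, against 0.026 and -0.018 in wt and 0.0079 and 0.0077 in wt2. Genes under 1 kb had -0.095 and -0.17 in cph1Δ and -0.13 and 0.083 in cph2Δ, against -0.088 and 0.10 in wt. All 6 deletion libraries lay above all 4 parent libraries for the members, and the 2 set2Δ libraries differed most between themselves.

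**Figure D3:**
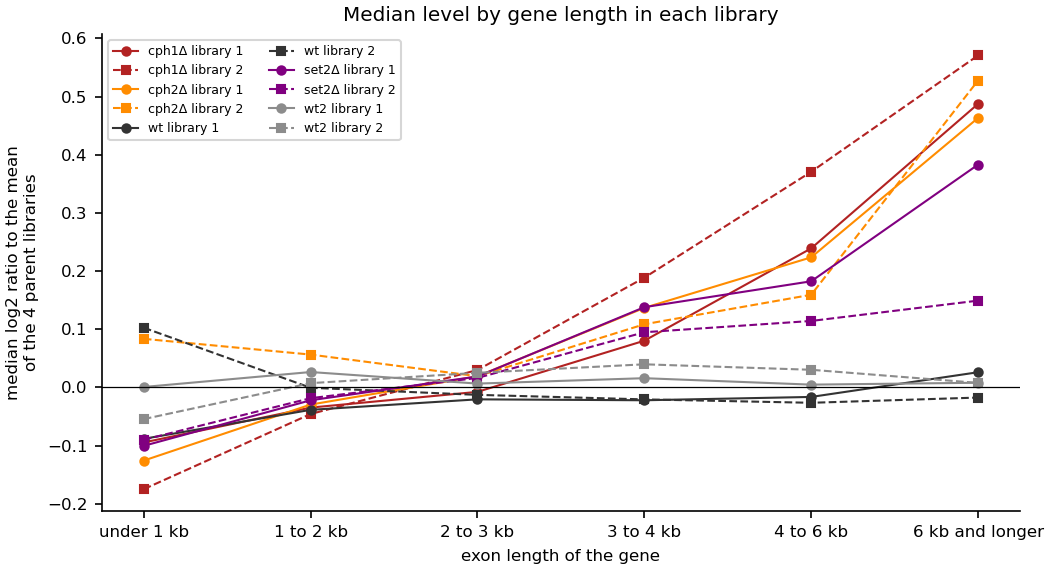
Median log2 ratio of each library to the mean of the 4 parent libraries for coding genes in 6 classes of exon length. At 6 kb and longer the 6 deletion libraries lie between 0.15 and 0.57 and the 4 parent libraries, which form the mean, between -0.018 and 0.026. Under 1 kb the deletion libraries lie between -0.17 and 0.083 and the parent libraries between -0.088 and 0.10.

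Cell wall synthases made up 8 members, whose values differed in direction. The alpha-glucan synthases mok11, mok12, mok13 and ags1 build the alpha-1,3-glucan of the wall, with ags1 the main enzyme of growing cells. Of these 4, mok11 and mok12 rose in cph1Δ, cph2Δ and set2Δ, and 0 fell (29.5%, 29.5% and 14.8% of all tested members rose). Levels of mok11 (SPAC1527.01) were 41.6 and 49.2 RPKM in cph1Δ and 42.6 and 36.7 in cph2Δ, against 17.2 and 15.5 in wt, and 39.9 and 29.1 in set2Δ, against 16.5 and 16.3 in wt2. Its deletion libraries all lay above those of the parents, and its log2 fold change was 1.48 ± 0.20 (edgeR adjusted p = 0.00283) in cph1Δ, 1.28 ± 0.20 (edgeR adjusted p = 0.00450) in cph2Δ and 1.07 ± 0.20 (edgeR adjusted p = 0.0119) in set2Δ. The mok11 call ended in cph2Δ at 0.0744 without wt replicate 2 (2.1e-06 to 0.0744 over 9 alternatives) and in set2Δ at 0.107 without wt2 replicate 1, 0.119 without wt2 replicate 2 and 0.108 without set2Δ replicate 1 (1.1e-04 to 0.119 over 9 alternatives).

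For mok12 (SPBC32H8.13c), a spore wall enzyme, levels were 19.9 and 34.1 RPKM in cph1Δ and 21.5 and 19.3 in cph2Δ, against 11.3 and 9.07 in wt, and 25.4 and 22.5 in set2Δ, against 12.4 and 10.6 in wt2. The 2 cph1Δ libraries were far apart, and no deletion library overlapped its parent. Fold changes were 1.41 ± 0.24 (edgeR adjusted p = 0.00694), 1.01 ± 0.24 (edgeR adjusted p = 0.0317) and 1.06 ± 0.24 (edgeR adjusted p = 0.0283) in cph1Δ, cph2Δ and set2Δ. Its adjusted p was 0.106 without wt replicate 2 and 0.0628 without cph1Δ replicate 2 (2.5e-05 to 0.106 over 10 alternatives) in cph1Δ. For mok12 in cph2Δ it was 0.0578 without wt replicate 1, 0.243 without wt replicate 2, 0.0728 without cph2Δ replicate 1 and 0.113 without cph2Δ replicate 2 (0.00643 to 0.243 over 9 alternatives). For set2Δ it was 0.120 without wt2 replicate 1, 0.222 without wt2 replicate 2, 0.143 without set2Δ replicate 1 and 0.0849 without set2Δ replicate 2 (0.00275 to 0.222 over 9 alternatives). The third enzyme, mok13, had 0.87 ± 0.29 (edgeR adjusted p = 0.114), 0.65 ± 0.29 (edgeR adjusted p = 0.207) and 0.93 ± 0.29 (edgeR adjusted p = 0.104), none past the edgeR test, with a DESeq2 adjusted p of 0.0460 in set2Δ. By contrast ags1 had 74.0 and 49.4 RPKM in cph1Δ and 73.5 and 56.5 in cph2Δ, against 85.7 and 109 in wt, with both deletions below both wt libraries, at -0.66 ± 0.25 (edgeR adjusted p = 0.152) and -0.58 ± 0.25 (edgeR adjusted p = 0.191), neither past the test. Outside the length rule, mok14, the remaining gene of this family, was called higher in cph1Δ (0.85) and cph2Δ (0.94) and stood at 0.59 in set2Δ, not past the test.

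Beta-glucan synthases also lay on both sides of 0. The enzymes Bgs1, Bgs3 and Bgs4 serve the septum and wall of growing cells, and Bgs2 the spore wall. Only bgs2 (SPAC24C9.07c) of these 4 passed a test, in cph1Δ and cph2Δ (29.5% of all tested members rose in each). Its levels were 23.3 and 24.0 RPKM in cph1Δ and 22.5 and 22.1 in cph2Δ, against 13.03 and 14.9 in wt, and 18.1 and 19.6 in set2Δ, against 12.9 and 12.99 in wt2, each pair apart from its parent, with 0.76 ± 0.15 (edgeR adjusted p = 0.0143), 0.68 ± 0.15 (edgeR adjusted p = 0.0241) and 0.54 ± 0.15 (edgeR adjusted p = 0.0697) in the 3 deletions. Its exons share 22.1% of positions with non-coding RNAs on the other strand, so this value is uncertain. The bgs2 call in cph1Δ ended at 0.0653 with the 4 compared libraries alone, 0.0573 without wt replicate 1, 0.0814 without wt replicate 2 and 0.0936 without cph1Δ replicate 2 (0.00333 to 0.0936 over 10 alternatives), and in cph2Δ at 0.128 with the 4 compared libraries alone, 0.0902 without wt replicate 1, 0.0960 without wt replicate 2, 0.0528 without cph2Δ replicate 1 and 0.124 without cph2Δ replicate 2 (0.0118 to 0.128 over 9 alternatives). The most abundant long gene in wt2, bgs4 (SPCC1840.02c), had 134 and 101 RPKM in cph1Δ and 148 and 88.6 in cph2Δ, against 159 and 239 in wt, and 169 and 141 in set2Δ, against 194 and 167 in wt2. Both cph deletions lay below both wt libraries, set2Δ overlapped wt2, and -0.76 ± 0.31 (edgeR adjusted p = 0.169), -0.75 ± 0.31 (edgeR adjusted p = 0.169) and -0.22 ± 0.31 (edgeR adjusted p = 0.763) did not pass. The other two, bgs1 and bgs3, stood at -0.44 ± 0.29 and -0.64 ± 0.30 in cph1Δ and -0.53 ± 0.29 and -0.64 ± 0.30 in cph2Δ, not past the test.

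The family of phosphatidylinositol 3-kinase-related kinases has 6 members here, which include checkpoint kinases, growth regulators and scaffolds of histone acetyltransferase complexes. In cph1Δ 2 of the 6 rose, in cph2Δ 3 and in set2Δ 1, with 0 lower in each. In the same order 29.5%, 29.5% and 14.8% of all tested members rose, and 5.31%, 5.21% and 4.32% of all genes. Tel1 is the ATM kinase of the response to broken DNA ends. Levels of tel1 (SPCC23B6.03c) were 19.3 and 19.7 RPKM in cph1Δ and 21.01 and 22.1 in cph2Δ, against 8.50 and 5.99 in wt, and 13.1 and 10.7 in set2Δ, against 8.42 and 7.55 in wt2, with no overlap between a deletion and its parent. It rose in cph1Δ by 1.43 ± 0.20 (edgeR adjusted p = 0.00273) and in cph2Δ by 1.57 ± 0.20 (edgeR adjusted p = 0.00121), and stood at 0.57 ± 0.19 (edgeR adjusted p = 0.130) in set2Δ. Its 2 calls held in each of 10 and 9 alternatives, with adjusted p up to 0.0396 and 0.0235.

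Tra1 is the pseudokinase scaffold of the SAGA complex. Levels of tra1 (SPBP16F5.03c) were 23.9 and 28.1 RPKM in cph1Δ and 26.9 and 26.8 in cph2Δ, against 11.5 and 7.86 in wt, and 49.8 and 21.1 in set2Δ, against 14.01 and 9.29 in wt2. The deletion libraries lay above those of the parents throughout, but the 2 set2Δ libraries differed more than 2-fold. Fold changes were 1.42 ± 0.36 (edgeR adjusted p = 0.0416), 1.47 ± 0.36 (edgeR adjusted p = 0.0337) and 1.60 ± 0.36 (edgeR adjusted p = 0.0261). The adjusted p of tra1 was 0.0532 with RLE scaling, 0.0571 without wt replicate 1, 0.371 without wt replicate 2, 0.0601 without cph1Δ replicate 1 and 0.261 without cph1Δ replicate 2 (0.00271 to 0.371 over 10 alternatives) in cph1Δ. It was 0.0578 without wt replicate 1, 0.253 without wt replicate 2, 0.0594 without cph2Δ replicate 1 and 0.145 without cph2Δ replicate 2 (0.00168 to 0.253 over 9 alternatives) in cph2Δ. Over wt2, set2Δ had 0.0801 with the 4 compared libraries alone, 0.0696 without wt2 replicate 1, 0.221 without wt2 replicate 2 and 0.209 without set2Δ replicate 1 (2.8e-04 to 0.221 over 9 alternatives). Its relative tra2, of the NuA4 complex, stood at 1.16 ± 0.33 (edgeR adjusted p = 0.0642) and 1.17 ± 0.33 (edgeR adjusted p = 0.0581), not past the edgeR test, with DESeq2 adjusted p of 0.0131 and 0.0110.

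The kinase of TORC2, tor1, rose in cph2Δ (0.70 ± 0.18, edgeR adjusted p = 0.0428) and stood at 0.64 ± 0.18 (edgeR adjusted p = 0.0635) in cph1Δ, where DESeq2 gave an adjusted p of 0.0334. For tor1 in cph2Δ the adjusted p was 0.0625 with RLE scaling, 0.0550 with no filter, 0.0554 with the replicate block, 0.147 with the 4 compared libraries alone, 0.0591 without wt replicate 1, 0.275 without wt replicate 2, 0.0735 without cph2Δ replicate 1 and 0.196 without cph2Δ replicate 2 (0.0148 to 0.275 over 9 alternatives). The kinase of TORC1, tor2, had 0.71 ± 0.29 (edgeR adjusted p = 0.169) and 0.67 ± 0.29 (edgeR adjusted p = 0.185). The ATR kinase gene rad3, at 0.26 ± 0.34 and 0.24 ± 0.34, shares 65.6% of its exon positions with its neighbours, one of which is the member swi1. Of 11 further genes for partners of these kinases, such as Mip1 and Ste20 of the TOR complexes and the Rad3 partner Rad26, 0 passed in any of the 3 deletions, with medians of 0.44, 0.31 and -0.11.

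Genes of DNA replication and chromosome segregation were cdc20, top2, cut1 and swi1. The catalytic subunit of DNA polymerase epsilon is encoded by cdc20 (SPBC25H2.13c), with 26.7 and 27.3 RPKM in cph1Δ and 31.5 and 30.3 in cph2Δ, against 10.7 and 9.41 in wt, and 24.7 and 20.03 in set2Δ, against 9.79 and 11.9 in wt2. The 2 libraries of each strain were close, and none overlapped between a deletion and its parent. Its fold changes were 1.42 ± 0.18 (edgeR adjusted p = 0.00195), 1.62 ± 0.18 (edgeR adjusted p = 9.0e-04) and 1.05 ± 0.18 (edgeR adjusted p = 0.00769). No exon position of cdc20 is shared, and its calls in cph1Δ and cph2Δ held in all 10 and 9 alternatives run (adjusted p up to 0.0349 and 0.0197), while in set2Δ it stood at 0.106 without wt2 replicate 1 and 0.0606 without set2Δ replicate 1 (6.8e-05 to 0.106 over 9 alternatives). Of 3 other polymerase genes (pol1, cdc6, rev3), 2 rose in each cph deletion and 0 in set2Δ (5.31%, 5.21% and 4.32% of all genes rose in cph1Δ, cph2Δ and set2Δ).

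Separase, which cuts cohesin at anaphase, is encoded by cut1, at 27.3 and 30.3 RPKM in cph1Δ and 28.97 and 24.6 in cph2Δ, against 17.5 and 15.2 in wt. Both cph deletions lay above wt, at 0.81 ± 0.19 (edgeR adjusted p = 0.0279) and 0.71 ± 0.19 (edgeR adjusted p = 0.0480), and set2Δ was at 0.60 ± 0.19 (edgeR adjusted p = 0.102). This was 1 of the less firm calls, with an adjusted p in cph1Δ of 0.0638 with the 4 compared libraries alone, 0.264 without wt replicate 2 and 0.214 without cph1Δ replicate 2 (0.0107 to 0.264 over 10 alternatives), and in cph2Δ of 0.0669 with RLE scaling, 0.0537 with the replicate block, 0.131 with the 4 compared libraries alone, 0.0746 without wt replicate 1, 0.275 without wt replicate 2, 0.123 without cph2Δ replicate 1 and 0.119 without cph2Δ replicate 2 (0.0312 to 0.275 over 9 alternatives). The topoisomerase II gene top2 rose in cph1Δ (0.83 ± 0.21, edgeR adjusted p = 0.0416) and stood at 0.61 ± 0.21 (edgeR adjusted p = 0.107) in cph2Δ. Its exons share 21.2% of their positions, so the value is uncertain, and the call ended at 0.0540 with RLE scaling, 0.0521 with the replicate block, 0.0941 with the 4 compared libraries alone, 0.0520 without wt replicate 1, 0.372 without wt replicate 2 and 0.394 without cph1Δ replicate 2 (0.0147 to 0.394 over 10 alternatives). The gene dbl8, annotated as an RNA helicase, rose by 0.64 ± 0.16 (edgeR adjusted p = 0.0398) in cph1Δ and 0.69 ± 0.16 (edgeR adjusted p = 0.0284) in cph2Δ. Its adjusted p was 0.0603 with RLE scaling, 0.0590 with no filter, 0.0642 with the replicate block, 0.124 with the 4 compared libraries alone, 0.0668 without wt replicate 1, 0.283 without wt replicate 2, 0.0672 without cph1Δ replicate 1 and 0.187 without cph1Δ replicate 2 (0.0222 to 0.283 over 10 alternatives) in cph1Δ. In cph2Δ dbl8 had 0.131 with the 4 compared libraries alone, 0.0640 without wt replicate 1, 0.187 without wt replicate 2, 0.0750 without cph2Δ replicate 1 and 0.0952 without cph2Δ replicate 2 (0.0106 to 0.187 over 9 alternatives). The fork protection gene swi1, one of the 3 members of lowest level, had 2.499 and 3.51 RPKM in cph1Δ and 1.71 and 1.56 in cph2Δ, against 1.73 and 2.72 in wt, and 1.35 and 0.769 in set2Δ, against 1.74 and 2.18 in wt2. It shares 83.3% of its exon positions with rad3. Its direction differed between the deletions, at 0.43 ± 0.35, -0.45 ± 0.36 and -0.89 ± 0.36, none past the test.

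Lipid transfer, membrane traffic and phosphoinositide genes were led by vps1302 (SPBC16C6.02c), of the VPS13 family of lipid transfer proteins, with 19.4 and 18.9 RPKM in cph1Δ and 21.5 and 20.2 in cph2Δ, against 7.43 and 5.48 in wt, and 13.3 and 13.5 in set2Δ, against 9.06 and 7.40 in wt2. Each pair of libraries was tight and above its parent. It had the largest fold change of any member in both cph deletions, 1.57 ± 0.19 (edgeR adjusted p = 0.00170) and 1.69 ± 0.19 (edgeR adjusted p = 9.0e-04), while set2Δ stood at 0.70 ± 0.18 (edgeR adjusted p = 0.0514), where DESeq2 gave an adjusted p of 0.0308. Shared positions are 0 for this gene, and the calls held in all 10 and 9 alternatives, with adjusted p up to 0.0245 and 0.0197. The COPII coat gene sec31 had -0.15 ± 0.20, 0.14 ± 0.20 and 0.29 ± 0.20, not past the test. Of 9 other traffic genes, among them sec16, 3 rose in cph1Δ, 2 in cph2Δ and 1 in set2Δ (5.31%, 5.21% and 4.32% of all genes). The phosphatidylinositol 4-kinase gene stt4 had 45.1 and 37.0 RPKM in cph1Δ and 48.5 and 48.8 in cph2Δ, against 26.8 and 37.2 in wt, and 24.1 and 18.9 in set2Δ, against 32.2 and 35.5 in wt2. It lay above wt without overlap in cph2Δ, overlapped wt in cph1Δ and lay below wt2 in set2Δ, at 0.36 ± 0.21 (edgeR adjusted p = 0.315), 0.61 ± 0.21 (edgeR adjusted p = 0.108) and -0.66 ± 0.21 (edgeR adjusted p = 0.113). The BEACH domain gene lvs1 stood at 0.69 ± 0.37 and 0.23 ± 0.37, with 47.9% of positions shared.

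**Figure D4:**
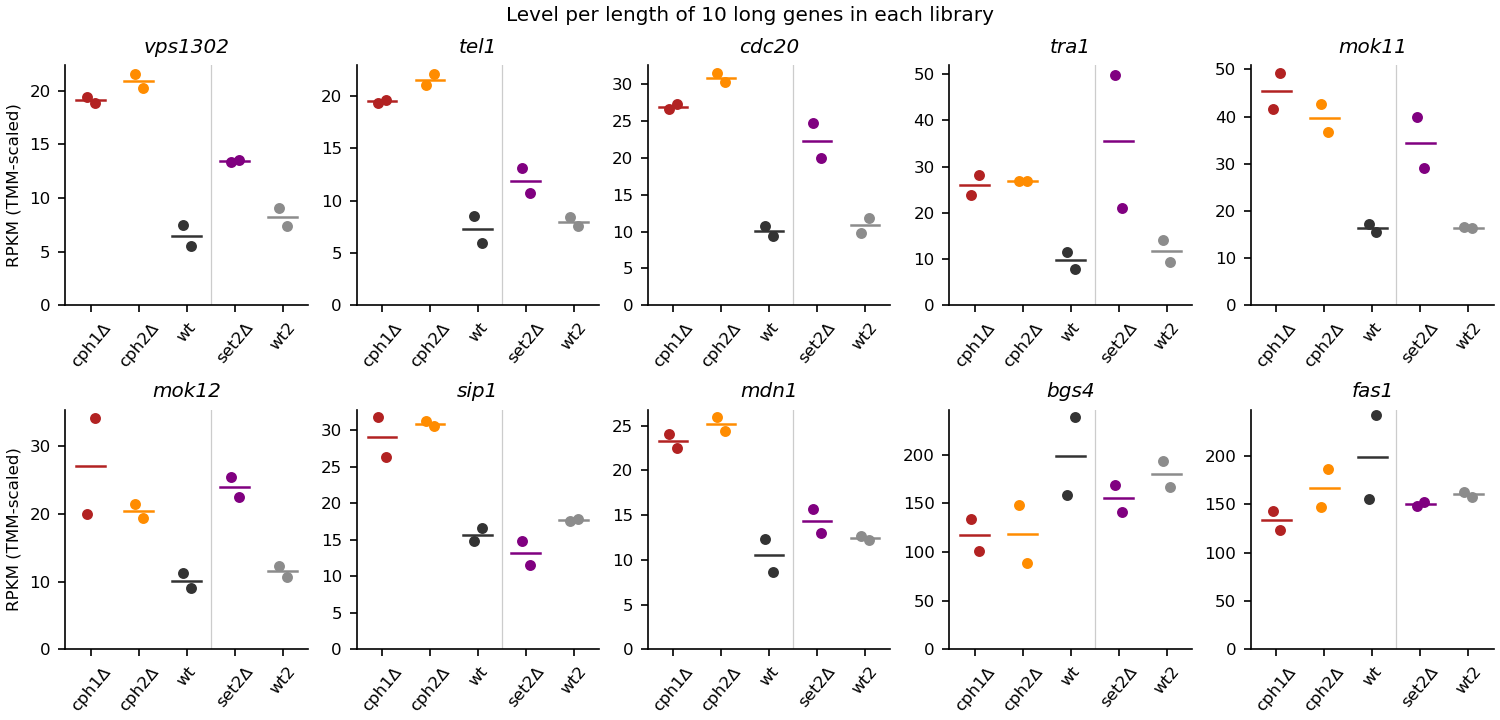
RPKM of 10 long genes in each library (points) with the mean of each strain (line), each panel on its own axis from 0. The first 8 genes (vps1302, tel1, cdc20, tra1, mok11, mok12, sip1 and mdn1) lie above wt in both cph deletions, bgs4 lies below it, and fas1 overlaps it in cph2Δ.

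Motor and polarity genes comprised dhc1, myp2, mor2 and spo15. The dynein heavy chain, dhc1, moves nuclei in meiotic prophase. Its levels were 10.2 and 11.4 RPKM in cph1Δ and 10.8 and 9.09 in cph2Δ, against 5.11 and 3.53 in wt, and 9.53 and 4.21 in set2Δ, against 6.98 and 4.03 in wt2, above wt in both cph deletions and overlapping in set2Δ. The edgeR test was not passed, at 1.32 ± 0.36 (edgeR adjusted p = 0.0538) and 1.21 ± 0.36 (edgeR adjusted p = 0.0684), while DESeq2 gave adjusted p of 0.0103 and 0.0218. Of 5 other dynein genes, 3 rose in cph1Δ, 1 in cph2Δ and 0 in set2Δ (5.31%, 5.21% and 4.32% of all genes), with medians of 1.81, 1.26 and 0.99. These 5 were dlc1, dli1, dic1, ssm4 and arp1, all shorter than 6 kb. A myosin II heavy chain, myp2, had 4.11 and 4.65 RPKM in cph1Δ and 4.40 and 2.63 in cph2Δ, against 2.67 and 2.04 in wt, and 3.91 and 3.28 in set2Δ, against 2.61 and 1.30 in wt2. With 76.1% of its positions shared, it stood at 0.89 ± 0.35, 0.57 ± 0.36 and 0.87 ± 0.36, not past the test. The morphogenesis gene mor2 stood at -0.11 ± 0.18, -0.055 ± 0.18 and -0.29 ± 0.18, and the spindle pole gene spo15 at 0.52 ± 0.18, 0.53 ± 0.18 and 0.17 ± 0.18, also without passing.

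Midasin, the AAA ATPase that matures the large ribosomal subunit, is encoded by the longest member, mdn1 (SPCC737.08). It had 24.1 and 22.5 RPKM in cph1Δ and 25.9 and 24.4 in cph2Δ, against 12.4 and 8.70 in wt, and 15.7 and 12.995 in set2Δ, against 12.7 and 12.2 in wt2, with every deletion library above its parent. It rose in cph1Δ (1.14 ± 0.21, edgeR adjusted p = 0.00854) and cph2Δ (1.26 ± 0.21, edgeR adjusted p = 0.00516), against 0.20 ± 0.20 (edgeR adjusted p = 0.670) in set2Δ. The adjusted p was 0.106 without wt replicate 2 (4.9e-05 to 0.106 over 10 alternatives) in cph1Δ and 0.0759 without wt replicate 2 (3.4e-06 to 0.0759 over 9 alternatives) in cph2Δ. The U3 snoRNP gene utp20 had 0.38 ± 0.18, 0.45 ± 0.18 and -0.11 ± 0.18, not past the test. Of 5 other ribosome biogenesis genes (urb1, urb2, utp10, rrp5, rrp12), 1 rose in each cph deletion and 0 in set2Δ, while their medians were -0.30, -0.26 and -0.26 (5.31%, 5.21% and 4.32% of all genes rose in cph1Δ, cph2Δ and set2Δ).

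Among the members described next, for splicing, transcription, translation and mRNA decay, only rqt2 was called. The U5 snRNP genes brr2 and spp42 stood at 0.29 ± 0.30 and 0.25 ± 0.27 in cph1Δ and at 0.076 ± 0.30 and -0.14 ± 0.27 in cph2Δ. Levels of brr2 were 78.4 and 46.8 RPKM in set2Δ, against 34.9 and 37.6 in wt2, with 1 set2Δ library far above the other (0.79 ± 0.30, edgeR adjusted p = 0.177). Mot1 removes TATA-binding protein from DNA, and mot1 had 49.5 and 45.1 RPKM in cph1Δ and 49.96 and 41.4 in cph2Δ, against 54.3 and 51.7 in wt, and 42.5 and 45.7 in set2Δ, against 32.3 and 31.9 in wt2. It was highest in wt and lowest in wt2, so that its differences from the parents ran in opposite directions, at -0.16 ± 0.18, -0.21 ± 0.18 and 0.46 ± 0.18, none past the test.

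The SWI/SNF ATPase gene snf22 stood at -0.16 ± 0.17, -0.27 ± 0.17 and 0.067 ± 0.17. The scaffold of the CCR4-Not deadenylase, not1, had 39.7 and 37.1 RPKM in cph1Δ and 46.5 and 33.1 in cph2Δ, against 47.9 and 49.1 in wt, below wt without overlap, at -0.34 ± 0.20 (edgeR adjusted p = 0.315) and -0.29 ± 0.20 (edgeR adjusted p = 0.409). For gcn1, the activator of the eIF2 kinase Gcn2, these were 0.14 ± 0.26, 0.26 ± 0.26 and 0.45 ± 0.26. The RNA helicase gene rqt2 (SPBC13G1.10c), the shortest member, had 33.9 and 36.4 RPKM in cph1Δ and 39.4 and 33.5 in cph2Δ, against 17.9 and 14.2 in wt, and 39.8 and 34.0 in set2Δ, against 16.4 and 19.6 in wt2. All 6 deletion libraries lay above all 4 of the parents, at 1.13 ± 0.19 (edgeR adjusted p = 0.00647), 1.18 ± 0.19 (edgeR adjusted p = 0.00478) and 1.04 ± 0.19 (edgeR adjusted p = 0.0109). For rqt2 the adjusted p was 0.0982 without wt replicate 2 and 0.0565 without cph1Δ replicate 2 (4.9e-05 to 0.0982 over 10 alternatives) in cph1Δ. It was 0.0828 without wt replicate 2 (1.3e-05 to 0.0828 over 9 alternatives) in cph2Δ. Over wt2, set2Δ had 0.132 without wt2 replicate 1, 0.0677 without wt2 replicate 2 and 0.0757 without set2Δ replicate 1 (1.7e-04 to 0.132 over 9 alternatives). Of 9 shorter genes of chromatin remodelling and transcription, 3 rose in each cph deletion and 2 in set2Δ (5.31%, 5.21% and 4.32% of all genes rose in cph1Δ, cph2Δ and set2Δ).

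**Figure D5:**
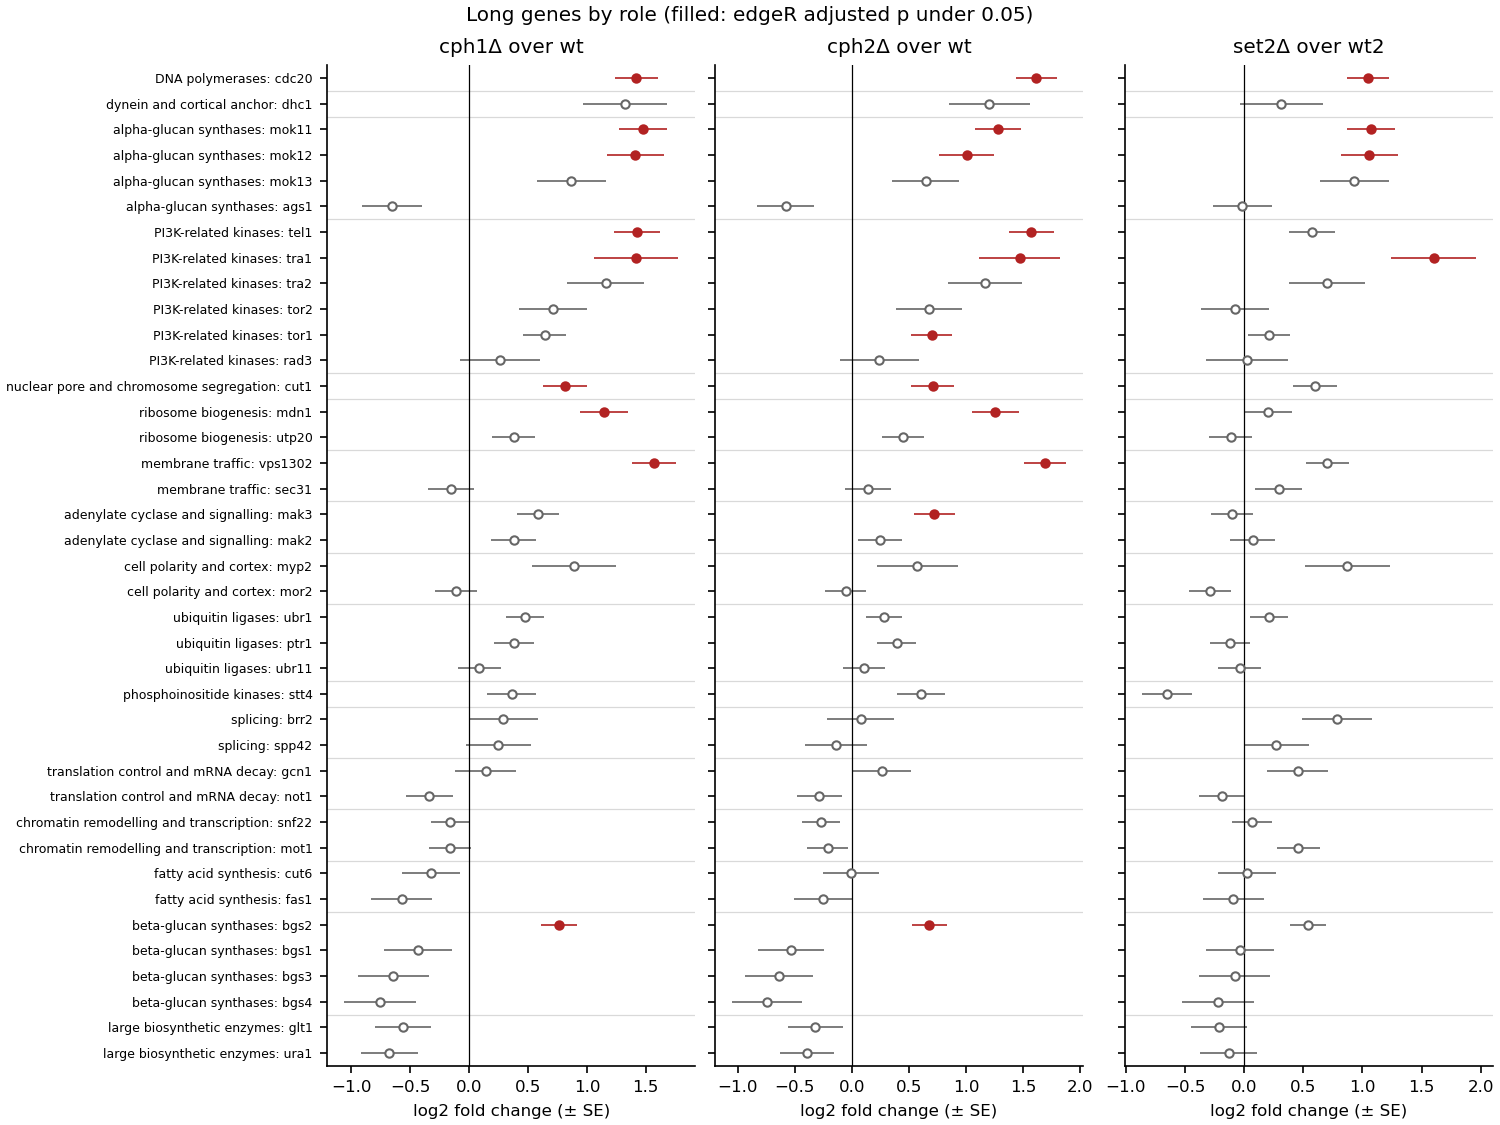
Log2 fold change (± SE) of the long genes that belong to a role group, in cph1Δ and cph2Δ over wt and set2Δ over wt2, with filled points past the edgeR test. The called genes lie between 0.68 (bgs2, cph2Δ) and 1.69 (vps1302, cph2Δ), and bgs4, bgs3, bgs1, ags1, ura1, glt1, fas1, not1 and mor2 lie below 0 in all 3 comparisons without passing.

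Enzymes of bulk metabolism, fas1, ura1, cut6 and glt1, were among the most abundant long genes. By the edgeR test 0 of these 4 passed in any deletion (29.5%, 29.5% and 14.8% of all tested members rose in cph1Δ, cph2Δ and set2Δ). Fas1, the beta subunit of fatty acid synthase, had 143 and 124 RPKM in cph1Δ and 147 and 187 in cph2Δ, against 155 and 242 in wt, and 148 and 152 in set2Δ, against 163 and 158 in wt2. It was below wt without overlap in cph1Δ and overlapped in cph2Δ, at -0.57 ± 0.26 (edgeR adjusted p = 0.210) and -0.25 ± 0.26 (edgeR adjusted p = 0.590). Pyrimidine synthesis begins with the enzyme encoded by ura1, at 154 and 121 RPKM in cph1Δ and 149.6 and 186 in cph2Δ, against 198 and 242 in wt, and 129 and 139.6 in set2Δ, against 135 and 159 in wt2. Both cph deletions lay below both wt libraries, with -0.68 ± 0.24 (edgeR adjusted p = 0.131) and -0.39 ± 0.24 (edgeR adjusted p = 0.348), and so did wt2, at -0.59 ± 0.24 (edgeR adjusted p = 0.640). Glutamate synthase (glt1) stood at -0.56 ± 0.24, -0.32 ± 0.24 and -0.21 ± 0.24, and acetyl-CoA carboxylase (cut6) at -0.32 ± 0.25, -0.0094 ± 0.25 and 0.025 ± 0.25. In wt2 glt1 stood below wt, at -0.78 ± 0.24 (edgeR adjusted p = 0.378), not past the test.

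Of the 3 ubiquitin ligase members 0 passed a test in any deletion, and of the 2 sensor kinases 1 did (29.5%, 29.5% and 14.8% of all tested members rose in cph1Δ, cph2Δ and set2Δ). Ubr1 and Ubr11 recognise N-terminal degrons, and Ptr1 is a large HECT-type ligase. In cph1Δ ubr1, ptr1 and ubr11 had 0.47 ± 0.16, 0.38 ± 0.17 and 0.088 ± 0.18, and in cph2Δ 0.28 ± 0.16, 0.39 ± 0.17 and 0.10 ± 0.18. The phosphorelay kinase gene mak3 had 26.0 and 27.7 RPKM in cph1Δ and 26.6 and 32.6 in cph2Δ, against 17.98 and 17.9 in wt, above wt without overlap. It rose in cph2Δ (0.72 ± 0.18, edgeR adjusted p = 0.0352) and stood at 0.58 ± 0.18 (edgeR adjusted p = 0.0849) in cph1Δ. In cph2Δ its adjusted p was 0.0545 with the replicate block, 0.129 with the 4 compared libraries alone, 0.0929 without wt replicate 1, 0.196 without wt replicate 2 and 0.261 without cph2Δ replicate 2 (0.0135 to 0.261 over 9 alternatives). Its paralogue mak2 had 0.38 ± 0.19 and 0.25 ± 0.19, not past the test.

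Transporters and channels were cch1, cta5, SPAC4F10.16c, bfr1 and str2. The plasma membrane calcium channel gene cch1 rose in cph1Δ (0.71 ± 0.17, edgeR adjusted p = 0.0370) and cph2Δ (0.83 ± 0.18, edgeR adjusted p = 0.0175). Its call ended in cph1Δ at 0.0542 with RLE scaling, 0.0984 with the 4 compared libraries alone, 0.111 without wt replicate 1, 0.0869 without wt replicate 2, 0.0557 without cph1Δ replicate 1 and 0.224 without cph1Δ replicate 2 (0.0239 to 0.224 over 10 alternatives). In cph2Δ that of cch1 ended at 0.0801 with the 4 compared libraries alone, 0.0811 without wt replicate 1 and 0.114 without cph2Δ replicate 2 (0.00485 to 0.114 over 9 alternatives). The P-type ATPase genes cta5 and SPAC4F10.16c, with 24.3% and 25.9% of positions shared, rose in set2Δ by 1.004 ± 0.18 and 0.90 ± 0.17 (edgeR adjusted p = 0.00905 and 0.0111). In cph1Δ they rose by 0.77 ± 0.18 and 0.87 ± 0.17 (0.0279 and 0.0125). In cph2Δ SPAC4F10.16c rose by 0.82 ± 0.17 (0.0159) and cta5 stood at 0.60 ± 0.18 (0.0695). For cta5 the adjusted p was 0.0743 with the 4 compared libraries alone, 0.0924 without wt replicate 1, 0.0898 without wt replicate 2, 0.0776 without cph1Δ replicate 1 and 0.0702 without cph1Δ replicate 2 (0.0157 to 0.0924 over 10 alternatives) in cph1Δ. Over wt2 it was 0.0913 without wt2 replicate 1, 0.0891 without wt2 replicate 2 and 0.0706 without set2Δ replicate 1 (2.8e-04 to 0.0913 over 9 alternatives). For SPAC4F10.16c it was 0.0536 with the 4 compared libraries alone, 0.148 without wt replicate 2 and 0.0565 without cph1Δ replicate 2 (8.7e-04 to 0.148 over 10 alternatives) in cph1Δ. In cph2Δ SPAC4F10.16c had 0.0883 with the 4 compared libraries alone, 0.161 without wt replicate 2 and 0.0672 without cph2Δ replicate 2 (0.00221 to 0.161 over 9 alternatives). In set2Δ its call ended at 0.132 without wt2 replicate 1, 0.0891 without wt2 replicate 2 and 0.0656 without set2Δ replicate 1 (2.5e-04 to 0.132 over 9 alternatives). The efflux transporter gene bfr1 was the only member of the 15 most abundant in wt to be called in set2Δ, at 85.6 and 88.0 RPKM in set2Δ, against 44.8 and 49.1 in wt2 (0.89 ± 0.20, edgeR adjusted p = 0.0292). Its adjusted p was 0.252 without wt2 replicate 1, 0.195 without wt2 replicate 2, 0.130 without set2Δ replicate 1 and 0.156 without set2Δ replicate 2 (1.9e-04 to 0.252 over 9 alternatives). In wt it had 71.4 and 78.4 RPKM, above wt2. The siderophore transporter gene str2 stood at 0.072 ± 0.16, -0.033 ± 0.16 and -0.29 ± 0.16.

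Of the 61 members tested, sip1 (SPBC27B12.08), annotated as an accessory protein of the AP-1 adaptor, was the only one whose response differed from that in set2Δ by edgeR's test of the difference. Its levels were 31.8 and 26.3 RPKM in cph1Δ and 31.3 and 30.6 in cph2Δ, against 14.9 and 16.6 in wt, and 14.9 and 11.6 in set2Δ, against 17.5 and 17.9 in wt2. It lay above wt in both cph deletions and below wt2 in set2Δ, with no overlap in any of the 3. Fold changes were 0.89 ± 0.18 (edgeR adjusted p = 0.0166), 0.98 ± 0.18 (edgeR adjusted p = 0.0103) and -0.42 ± 0.18 (edgeR adjusted p = 0.246). The cph1Δ effect minus the set2Δ effect was 1.31 ± 0.26 (edgeR adjusted p = 0.0427), and the cph2Δ effect minus the set2Δ effect 1.40 ± 0.26 (edgeR adjusted p = 0.0226), where 0.868% and 1.26% of all genes passed in either direction. For stt4 and mdn1 DESeq2 and not edgeR called a difference from set2Δ, in cph2Δ, at 1.26 and 1.05 in the edgeR fit (edgeR adjusted p = 0.0885 and 0.151). Exons of sip1 share 25.2% of positions with other genes, so the value is uncertain. Adjusted p of the cph1Δ difference was 0.0536 with RLE scaling, 0.0506 with the replicate block, 0.154 without wt replicate 1, 0.0762 without wt replicate 2, 0.110 without cph1Δ replicate 1, 0.0549 without cph1Δ replicate 2, 0.127 without wt2 replicate 1, 0.153 without wt2 replicate 2 and 0.239 without set2Δ replicate 2 (0.00228 to 0.239 over 12 alternatives), and of the cph2Δ difference 0.0929 without wt replicate 1, 0.0618 without cph2Δ replicate 2, 0.0762 without wt2 replicate 1, 0.0881 without wt2 replicate 2 and 0.130 without set2Δ replicate 2 (5.2e-04 to 0.130 over 12 alternatives). The adjusted p in cph1Δ itself was 0.0609 with the 4 compared libraries alone, 0.0644 without wt replicate 1, 0.0989 without wt replicate 2 and 0.0589 without cph1Δ replicate 1 (0.00250 to 0.0989 over 10 alternatives), and in cph2Δ 0.0544 without wt replicate 1, 0.0744 without wt replicate 2 and 0.0595 without cph2Δ replicate 2 (5.4e-04 to 0.0744 over 9 alternatives).

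A glycoprotein gene, SPBPJ4664.02, had 9.37 and 6.49 RPKM in cph1Δ and 8.68 and 9.79 in cph2Δ, against 4.25 and 3.28 in wt, and 4.46 and 2.72 in set2Δ, against 3.32 and 3.21 in wt2. It rose in cph1Δ (1.08 ± 0.26, edgeR adjusted p = 0.0323) and cph2Δ (1.30 ± 0.26, edgeR adjusted p = 0.0138), while set2Δ overlapped wt2 (0.13 ± 0.26, edgeR adjusted p = 0.837). The adjusted p was 0.312 without wt replicate 2, 0.0990 without cph1Δ replicate 1 and 0.0565 without cph1Δ replicate 2 (0.00984 to 0.312 over 10 alternatives) in cph1Δ and 0.1498 without wt replicate 2 and 0.0973 without cph2Δ replicate 2 (8.9e-04 to 0.1498 over 9 alternatives) in cph2Δ. SPAC57A7.05, which encodes an uncharacterized protein, had 16.7 and 24.0 RPKM in cph1Δ and 18.8 and 15.7 in cph2Δ, against 12.1 and 7.066 in wt, and 33.5 and 16.8 in set2Δ, against 10.8 and 6.19 in wt2. The 2 set2Δ libraries were far apart, and all deletion libraries lay above their parents. It passed the test in set2Δ, at 1.56 ± 0.37 (edgeR adjusted p = 0.0342), and stood at 1.08 ± 0.37 (edgeR adjusted p = 0.118) in cph1Δ and 0.85 ± 0.37 (edgeR adjusted p = 0.191) in cph2Δ. The cph1Δ effect minus the set2Δ effect was -0.48 ± 0.51 (edgeR adjusted p = 0.856) and the cph2Δ effect minus the set2Δ effect -0.72 ± 0.52 (edgeR adjusted p = 0.669), neither past the test. Its adjusted p in set2Δ was 0.0730 with the 4 compared libraries alone, 0.0553 without wt2 replicate 1, 0.262 without wt2 replicate 2 and 0.250 without set2Δ replicate 1 (0.00113 to 0.262 over 9 alternatives).

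The gluconate transporter inducer gene gti1 rose in cph1Δ (0.92 ± 0.17, edgeR adjusted p = 0.0106) and cph2Δ (1.05 ± 0.17, edgeR adjusted p = 0.00524) and stood at 0.57 ± 0.17 (edgeR adjusted p = 0.0920) in set2Δ. The gti1 call ended in cph1Δ at 0.0641 with the 4 compared libraries alone, 0.106 without wt replicate 2 and 0.0669 without cph1Δ replicate 2 (0.00191 to 0.106 over 10 alternatives). It ended in cph2Δ at 0.0529 with the 4 compared libraries alone and 0.0715 without wt replicate 2 (1.8e-04 to 0.0715 over 9 alternatives). The remaining members did not pass in any deletion. They were gsf2, of a cell surface flocculin, hob2, the conjugation gene prm1, the tryptophanyl-tRNA ligase gene msw1, wdr70 and SPCC320.06, and their fold changes lay between -0.24 (msw1, set2Δ) and 0.65 (gsf2, set2Δ). The splicing factor gene prp17 and the phosphoinositide kinase gene fab1 overlap on opposite strands, with 94.0% and 97.1% of their positions shared. prp17 was tested on 0 to 15 counts per library and gave 1.16 ± 1.34, -0.11 ± 1.49 and -0.30 ± 1.16, none past the test, while fab1 and the transcription factor gene mbx2 (97.6% shared) had at most 2 counts in any library and were not tested.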

How the data were processed

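Raw counts per gene in 10 libraries, 2 per strain, were deposited as 1 table; per the file headers they were made with featureCounts (Subread 2.0.1) over exons of the ASM294v2 annotation, with no option for strand or overlapping genes. The submitters' processing notes also name STAR 2.7.10a, SAMtools 1.16.1, Picard, DESeq2 1.36.0 and edgeR 3.38.4. Names and coding lengths came by identifier from RefSeq for the later ASM294v3 build, which matched 6846 of 7268 identifiers, and no coordinate of that build was used. The exon length is a column of the deposited count table.

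Of 5691 genes with a count, 5067 passed edgeR's filterByExpr. One quasi-likelihood model (edgeR 4.0.16, limma 3.58.1, R 4.3.3) with TMM scaling and a mean per strain was fitted to all 10 libraries (5 residual degrees of freedom, biological coefficient of variation 0.211), and p-values were adjusted by Benjamini-Hochberg over all 5067 genes. It was tested on simulated data. Length classes, level groups and role groups were described by counts and medians, with no test. Members split by level were placed by their RPKM in the parent strain that the comparison did not use.

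The members, role lists and tests were chosen with earlier results of these data known. Role lists were written largely from names of genes known to encode large proteins. The length of their shorter genes was not taken into account in the counts of calls. In lists not counted above, 0 other genes rose for splicing (3 genes), ubiquitin ligases (4), phosphoinositide kinases (2) and fatty acid synthesis (2). In cph1Δ, cph2Δ and set2Δ, 3, 1 and 0 of 12 rose for nuclear pore and segregation, and 2, 2 and 0 of 11 for polarity. Translation and mRNA decay had 1, 1 and 1 of 3, and signalling 1, 0 and 0 of 7 (5.31%, 5.21% and 4.32% of all genes rose). Every member is named. Values by library are given for those with the largest changes, the highest levels and a tested difference of effects. They are given for some of those with the lowest levels or the smallest p of a role group. Alternatives were RLE scaling, no filter, DESeq2 1.42.0, a replicate block, the 4 compared libraries alone, each library left out, other length limits and members with no shared exon position. Counting error at these depths is covered by the model's spread.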

Additional observations from a re-analysis of the deposited data

Results flagged for a closer look

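The response of sip1, which encodes an accessory protein of the AP-1 adaptor, differed between the cph deletions and set2Δ by edgeR's test of the difference. It was 1 of 61 members tested (1.64%), where 0.868% and 1.26% of all genes passed for cph1Δ and cph2Δ. The cph1Δ effect minus the set2Δ effect was 1.31 on the log2 scale (edgeR adjusted p = 0.0427), and the cph2Δ effect minus the set2Δ effect was 1.40 (edgeR adjusted p = 0.0226). All 4 cph libraries lay above both wt libraries, while both set2Δ libraries lay below both wt2 libraries. The adjusted p ranged from 0.00228 to 0.239 over 12 alternatives for cph1Δ, of which 3 passed, and from 5.2e-04 to 0.130 for cph2Δ, of which 7 passed. The 2 differences share the set2Δ, wt2 and wt libraries. Its exons share 25.2% of their positions with other genes, whose part in the values was not tested.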

How the results depend on the processing

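Members called numbered 14, 16 and 9 (cph1Δ, cph2Δ, set2Δ) under RLE scaling, 19, 19 and 9 with no filter, and 22, 20 and 11 by DESeq2, all higher except ura1 in cph1Δ. With the 4 compared libraries alone cph1Δ had 11. Shares called over all genes under these settings are not given here, so a change over all genes cannot be told from one in the members. A length limit of 5000 bases gave 39, 39 and 17 of 151, and one of 7000 gave 9, 11 and 5 of 34. A coding length of 6000, added after seeing the data, gave 8, 10 and 4 of 32, and members with no shared position gave 3, 5 and 2 of 19; fewer genes enter these. The cph1Δ median was 0.46 under RLE scaling and 0.46 by DESeq2, 0.43 and 0.62 at the 5000 and 7000 limits, 0.54 by coding length and 0.29 with no shared position; the cph2Δ median was 0.31 at 5000, 0.42 by coding length and 0.34 with no shared position. DESeq2 called 3 members between wt2 and wt and 3 in the cph2Δ difference from set2Δ. The single call of the cph1Δ difference became 0 under RLE scaling, the replicate block, coding length and no shared position, and that of the cph2Δ difference 0 in the last 2; the cause was not tested.

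Leaving out 1 library at a time, calls ranged from 4 to 13 in cph1Δ, 4 to 12 in cph2Δ and 0 to 7 in set2Δ, and from 0 to 1 in each difference. Medians ranged from 0.52 to 0.58, 0.42 to 0.54 and 0.10 to 0.40. Lower-level members called ranged from 4 to 10, 4 to 9 and 0 to 6. The members' median minus that of genes of 1 to 2 kb ranged from 0.56 to 0.61, 0.41 to 0.51 and 0.14 to 0.44. Of the results for single genes, 1509 kept direction and call, 153 lost the call, 29 gained it and 38 changed sign, none of the 38 past the test. One of these was rad3 in set2Δ under the replicate block (-0.014), and the others came with 1 library left out. In cph1Δ they were prp17 (-0.33 to 1.88), brr2 (-0.025 to 0.66), sec31 (-0.37 to 0.038), mor2 (-0.26 to 0.028), msw1 (-0.29 to 0.085) and gsf2 (-0.082 to 0.67). In cph2Δ they were prp17 (-4.83 to 0.91), fas1 (-0.54 to 0.072), cut6 (-0.33 to 0.24), brr2 (-0.25 to 0.45), spp42 (-0.66 to 0.22), mor2 (-0.20 to 0.077) and lvs1 (-0.65 to 0.76). In set2Δ they were SPBPJ4664.02 (-0.27 to 0.44), prp17 (-2.58 to 0.60), cut6 (-0.036 to 0.079), dhc1 (-0.39 to 0.79), snf22 (-0.033 to 0.16), gcn1 (-0.031 to 0.81), mak3 (-0.27 to 0.048), prm1 (-0.044 to 0.25), bgs3 (-0.44 to 0.20), ubr11 (-0.14 to 0.051), tor2 (-0.73 to 0.37), rad3 (-0.79 to 0.55), lvs1 (-0.096 to 0.51), bgs1 (-0.43 to 0.30) and ags1 (-0.11 to 0.071).

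Whether replicate numbers pair the libraries was not settled. Deviations from the strain means correlated at -0.41 between cph1Δ and wt, 0.23 between cph2Δ and wt and 0.26 between set2Δ and wt2. Between wt2 and wt they correlated at 0.036. A replicate block gave 18, 17 and 9 calls in cph1Δ, cph2Δ and set2Δ, and crossing the numbers of cph1Δ and wt, tried after seeing the data, gave 23. Low counts limit prp17, with at most 15 per library.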
